A study of Mus musculus with 8 samples.

Results

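The replication-dependent histone genes encode the bulk of the H1, H2A, H2B, H3 and H4 proteins that package newly made DNA. They were taken as every gene whose symbol starts with Hist1, Hist2, Hist3 or Hist4 followed by h1, h2a, h2b, h3 or h4, and 69 of the 24505 rows in the deposited tables matched. By class these were 6 H1, 19 H2A, 19 H2B, 12 H3 and 13 H4 genes. By locus 55 belong to the Hist1 cluster on mouse chromosome 13, 10 to Hist2 on chromosome 3, 3 to Hist3 on chromosome 11 and 1, Hist4h4, to chromosome 6. Hist3h2bb-ps and Hist1h2al, which GENCODE annotates as processed pseudogenes, match the same pattern and were kept.

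The RNA came from mouse embryonic stem cells of the line INO80 CKO, in which the gene of the remodelling ATPase INO80 can be deleted on demand. The study asked how deletion of Ino80 alters the transcriptome in both pluripotent states. Naive cells were grown on gelatin in N2B27 medium with PD0325901, an inhibitor of MEK, CHIR99021, an inhibitor of GSK3, and the cytokine LIF. Primed cells were grown on fibronectin in N2B27 with FGF-2, Activin A and the tankyrase inhibitor XAV-939. There were 8 libraries, a knockout pair and a wild-type pair for each state by their labels, and all 8 carry the same line name. To delete the gene, cells received 4-OHT at 100 nM for 2 days and were then kept for 2 days more. The sources used here do not give whether the wild-type cells also received 4-OHT, nor which promoter drives the recombinase. The labels do not tell whether the pair of libraries in a group stems from separate cultures, and p-values then reflect the spread between libraries alone, which may be technical.

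Replication-dependent histone genes are switched on as cells enter S phase, when NPAT at the histone locus body drives their transcription. Most of their mRNAs end not in a poly(A) tail but in a short hairpin, the stem-loop, which is bound by the stem-loop binding protein SLBP and left at the end when the U7 snRNP guides a cut just downstream of it. Some of the genes can also give transcripts with a poly(A) tail, which lack this coupling to S phase. The genes have no introns as a rule, lie in clusters and encode nearly identical proteins, so reads can often be assigned to several copies.

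Most of these genes were close to or under 1 RPKM, a read number corrected for gene length and library size, as scaled further by the authors. Of the 69 genes, 58 had a mean under 1 RPKM over the 8 libraries and 36 were under 1 RPKM in every library. The median of the 69 means was 0.396 RPKM, and the median member stood between the 38.2nd and the 44.3rd percentile of all rows in the 8 libraries. Another 14 genes reached 1 RPKM in 1 library only. At the bottom, 9 genes had exactly the value of other genes in all 4 naive libraries and also in all 4 primed libraries, with values of at most 0.216 RPKM, among them Hist1h2bq and Hist1h2br at a mean of 0.0108 RPKM each.

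Highest in level were 5 genes, Hist1h4i with a mean of 10.4 RPKM, Hist1h2bc with 9.38, Hist3h2a with 7.01, Hist3h2ba with 6.45 and Hist1h1c with 5.86. These 5 were picked after their values were seen, and the next gene, Hist1h2bj, had a mean of 2.79 RPKM. Some replication-independent variants, which supply histones outside S phase, were far above them on the same length-corrected scale. H3f3b, a gene of the replacement histone H3.3, lay between 238 and 349 RPKM, whereas all 12 Hist H3 genes together summed to between 2.72 and 14.8 RPKM. H2afz, the gene of H2A.Z, lay between 332 and 501 RPKM, and H2afx, the gene of H2A.X, between 104 and 174, against sums of 4.89 to 15.8 for the 19 Hist H2A genes. Other variants were not, such as the germ-cell linker histones H1foo, at 0.0148 to 0.0809 RPKM, and H1fnt, at 0.0239 to 0.113.

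Libraries were made from total RNA after removal of ribosomal RNA with a kit of the TruSeq RNA V2 line, per the labels' protocols, which do not say whether RNA with a poly(A) tail was also selected. Levels of other RNAs without a tail ranged widely, and the following were picked after their values were seen. Rmrp, the RNA of RNase MRP, lay between 0.538 and 2.96 RPKM, Rpph1, the RNA of RNase P, between 2.90 and 10.7 and Terc, the telomerase RNA, between 0.238 and 1.97. Malat1, a nuclear RNA whose end is a triple helix rather than a tail, lay between 42.3 and 101 RPKM, and the small nucleolar RNA Snord83b between 53.2 and 121. The part of RNA selection, or of how reads shared by copies were counted, in the low histone values was not tested.

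**Figure D1:**
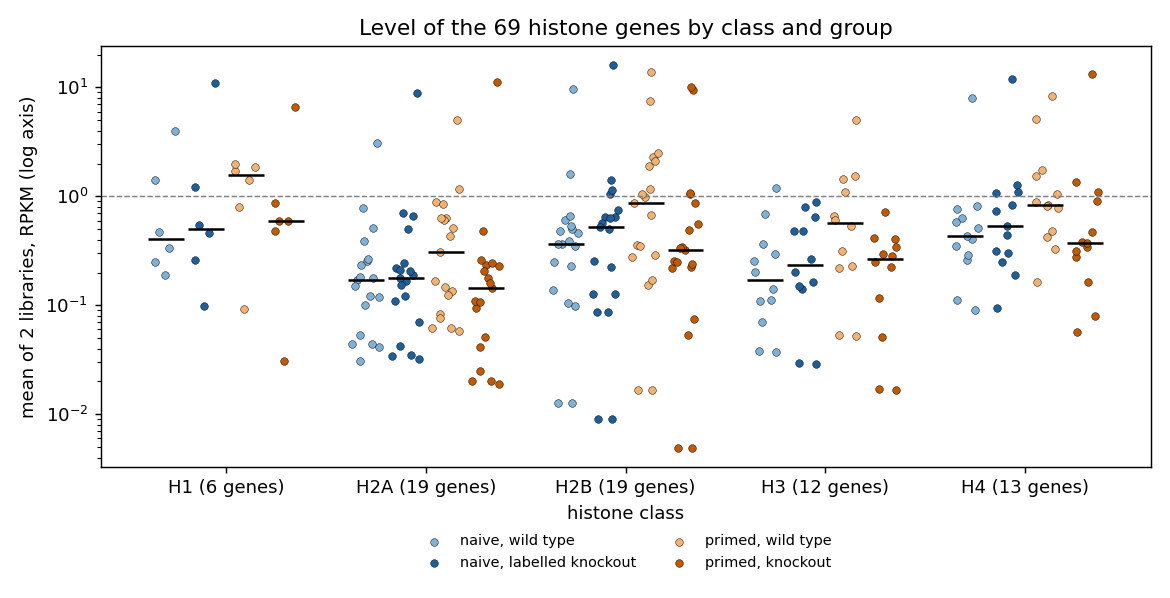
Mean RPKM of 2 libraries (log axis) for each of the 69 histone genes, by class and group; each point is a gene, black bars are medians over the genes of a class and the dashed line marks 1 RPKM. In H1, H2A, H2B and H4 a gene or a few stand near or above 10 RPKM in at least 1 group, and the highest H3 mean is 5.02 RPKM in primed wild type. Within the primed state the class medians are higher in wild type than in knockout, as was the transcriptome as a whole. Naive and primed libraries were scaled separately, so the states are not compared.

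Within the classes a few genes carried most of the signal. In H1, the linker histones that bind DNA between nucleosomes, Hist1h1c led with 5.86 RPKM, followed by Hist1h1a with 1.30 and Hist1h1e with 0.741. In H2A, Hist3h2a at 7.01 RPKM was followed by Hist1h2ae at 0.704 and Hist1h2ai at 0.484. In H2B, Hist1h2bc at 9.38 and Hist3h2ba at 6.45 RPKM were followed by Hist1h2bj at 2.79. In H3, Hist1h3c led with 1.86 RPKM before Hist1h3g with 0.824 and Hist1h3e with 0.719. In H4, Hist1h4i at 10.4 RPKM was followed by Hist1h4d at 2.07 and Hist1h4k at 1.01. The first gene was above the next in 8 of 8 libraries in H2A and H4 and in 7 of 8 in H1. In H2B, Hist1h2bc was above Hist3h2ba in 5 of 8 libraries, and the order went with the groups. In every naive library Hist1h2bc was higher, at 7.88 to 16.6 against 0.499 to 1.51 RPKM. In primed wild type Hist3h2ba was higher, at 11.5 and 16.2 against 1.55 and 3.01 RPKM. In primed knockout they were close, with Hist3h2ba at 11.0 and 9.04 against 9.95 and 9.13 RPKM. In H3, Hist1h3c was above Hist1h3g in 5 of 8. It was above in both primed wild-type libraries and below in both primed knockout libraries. Genes known from male germ cells were at the bottom, with a mean of 0.103 RPKM for Hist1h1t, 0.105 for Hist1h2aa and 0.100 for Hist1h2ba.

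The 3′ ends of the transcripts separate most of these genes, though not all, from nearly all others. They are shown because the end sets which processing pathway a histone mRNA uses. In GENCODE M21 transcripts matched by symbol, which were available for all 69, 46 genes held a stem-loop of a 6-base stem and a 4-base loop of the histone type. The same search found it in 0.310% of 21901 genes with protein-coding transcripts. The search and the windows below were set after values had been seen, so what follows is a description. A stretch of 30 bases around the stem-loop, with its 16 bases in capitals, reads as follows in 7 genes, the first 4 with a poly(A) signal near the annotated end and the last 3 without.
Hist1h1c: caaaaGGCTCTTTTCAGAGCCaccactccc
Hist3h2a: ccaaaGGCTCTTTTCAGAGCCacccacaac
Hist3h2ba: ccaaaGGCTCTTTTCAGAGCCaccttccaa
Hist1h4i: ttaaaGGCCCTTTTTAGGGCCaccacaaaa
Hist1h3c: aaaaaGGCTCTTTTAAGAGCCacctaagat
Hist1h2bj: ccaaaGGCTCTTTTCAGAGCCacgcacaat
Hist1h4d: ccaaaGGCCCTTTTCAGGGCCactaccttc

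The hairpin of Hist1h1c, Hist3h2a, Hist3h2ba and Hist1h2bj was the most common, shared by 26 of the 69 genes and found in the H1, H2A, H2B and H3 classes. That of Hist1h4d, which differs in the stem, was found in 7 genes, all H4. Of the 46 genes with a stem-loop, 13 also had a poly(A) signal, AATAAA or ATTAAA, starting 10 to 40 bases before an annotated end, and 33 did not. Another 3 genes had the signal only and 20 had neither. Several of these 20 have short annotated transcripts, such as 312 bases for Hist1h4k, 381 for Hist2h2bb and 393 for Hist1h2ak. A feature past the annotated end could not be found, so the 20 are not shown to lack both. Such a signal was found in 75.6% of genes with protein-coding transcripts. The sites of the 4 highest genes that have it are shown with the signal in capitals.
Hist1h1c: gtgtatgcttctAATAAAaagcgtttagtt
Hist3h2a: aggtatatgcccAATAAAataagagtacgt
Hist3h2ba: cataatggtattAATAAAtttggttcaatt
Hist1h4i: ggttctgtttacATTAAAagtattctatgc

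These 4 genes are 4 of the 5 highest of the family, and their annotated transcripts run past the hairpin. The transcript of Hist3h2a is 2146 bases long with the hairpin window ending at base 512, and that of Hist1h1c 1560 with the window ending at base 729. The remaining gene of the 5, Hist1h2bc, has neither feature in its only annotated transcript, which has 2 exons. Among the 33 genes with a stem-loop only, the highest mean was 2.79 RPKM, that of Hist1h2bj, and the median was 0.408. Among the 13 with both features the means ranged from 0.0338 to 10.4 RPKM with a median of 0.547, so a signal near the annotated end did not by itself go with a high level. Where the RNA of these cells ended cannot be read from a value per gene.

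Sequence sharing between copies limits these values. Of the 50-base windows of a gene's transcripts, a median of 50.5% over the 69 genes occurred in the transcript of no other gene. In 33 genes fewer than 50% were unique, and 30 of these had a mean under 1 RPKM. Of the 9 genes with at least 90% unique windows, 7 also had a mean under 1 RPKM, among them Hist1h1d at 0.703 and Hist2h4 at 0.628. For 2 genes, Hist2h2aa2 and Hist2h3c1, no window was unique, and their values of 0.0376 and 0.0338 RPKM on average cannot be told apart from those of their copies. Of the 5 highest genes, Hist1h1c had 91.5% unique windows, Hist3h2ba 77.9%, Hist1h4i 71.1%, Hist1h2bc 69.9% and Hist3h2a 68.5%.

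**Figure D2:**
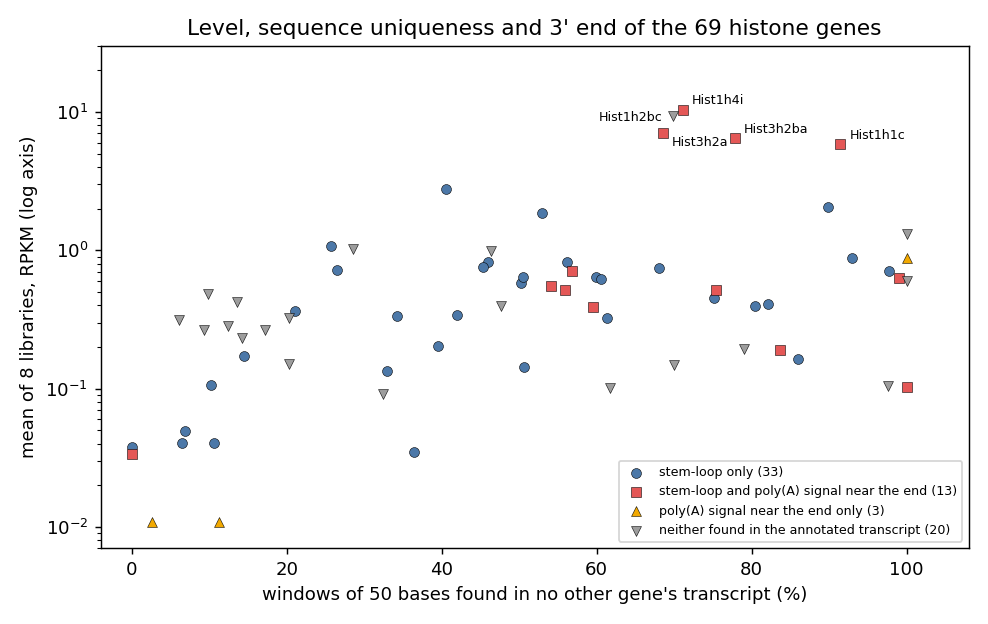
Mean RPKM over the 8 libraries (log axis) of the 69 histone genes against the percentage of 50-base windows found in no other gene's transcript; symbols give the 3′ end features of the annotated transcripts, with the number of genes in brackets. The 5 named genes stand above all others at 68.5 to 91.5% unique windows, and genes with many unique windows are also found under 1 RPKM.

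A comparison of knockout with wild type in the naive state found few changes. Of the 69 genes, 19 reached 1 RPKM in at least 2 libraries and were tested, 3 H1, 1 H2A, 7 H2B, 3 H3 and 5 H4. Differences are given as knockout minus wild type of log2(RPKM + 1) with their SE from limma over all 13428 genes tested, and adjusted p-values are by the Benjamini-Hochberg method over those genes, with a threshold of 0.05. In the naive state 3 of the 19 were higher, against 6.08% of all tested genes, and 0 were lower, against 5.85%. The median difference of the 19 was 0.25 and that of all tested genes 0.049. At an unadjusted p under 0.05 there were 6 higher and 0 lower. The share of all genes at that threshold was not counted, so nothing is drawn from these counts. After loess normalization limma called 5 higher, beside 29.1% of all tested genes, and 1, Hist1h4b, lower, beside 28.4%.

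Hist3h2a, an H2A gene outside the large cluster, measured 9.15 and 8.43 RPKM in the naive libraries labelled knockout and 3.81 and 2.39 in the wild-type libraries. The groups do not overlap, and both knockout values exceed the wild-type ones more than 2-fold. The difference was 1.28 ± 0.26 (limma adjusted p = 2.0e-05), and the call held in all 17 alternatives. Hist1h1c, a linker histone gene, measured 12.3 and 9.60 RPKM against 4.89 and 3.11. Here too both knockout libraries were above both wild-type libraries, with a difference of 1.27 ± 0.27 (limma adjusted p = 7.6e-05), a call that was lost without naive knockout replicate 1 (limma adjusted p = 0.0996).

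Hist1h2bc, an H2B gene of the large cluster, measured 16.6 and 15.4 RPKM in naive knockout libraries against 11.5 and 7.88. The groups do not overlap, but the wild-type libraries are well apart from each other, with a mean of 9.69 ± 2.56 RPKM (SD, n = 2) against 16.0 ± 0.837. The difference of 0.69 ± 0.24 passed narrowly (limma adjusted p = 0.0341), and the call was lost in 9 of 17 alternatives, 5 of them the omission of naive knockout replicate 1 or 2, naive wild-type replicate 2 or primed knockout replicate 1 or 2, with limma adjusted p-values up to 0.514. Omitting naive wild-type replicate 2 lowered the difference to 0.45, and omitting replicate 1 raised it to 0.94. Hist1h4i, the highest H4 gene, measured 11.1 and 12.7 RPKM against 7.24 and 8.81, a difference of 0.52 ± 0.22 that did not pass (limma adjusted p = 0.102). Hist3h2ba, the neighbour of Hist3h2a, measured 1.31 and 1.51 RPKM against 0.499 and 0.575, and its difference of 0.65 ± 0.28 did not pass either (limma adjusted p = 0.119).

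**Figure D3:**
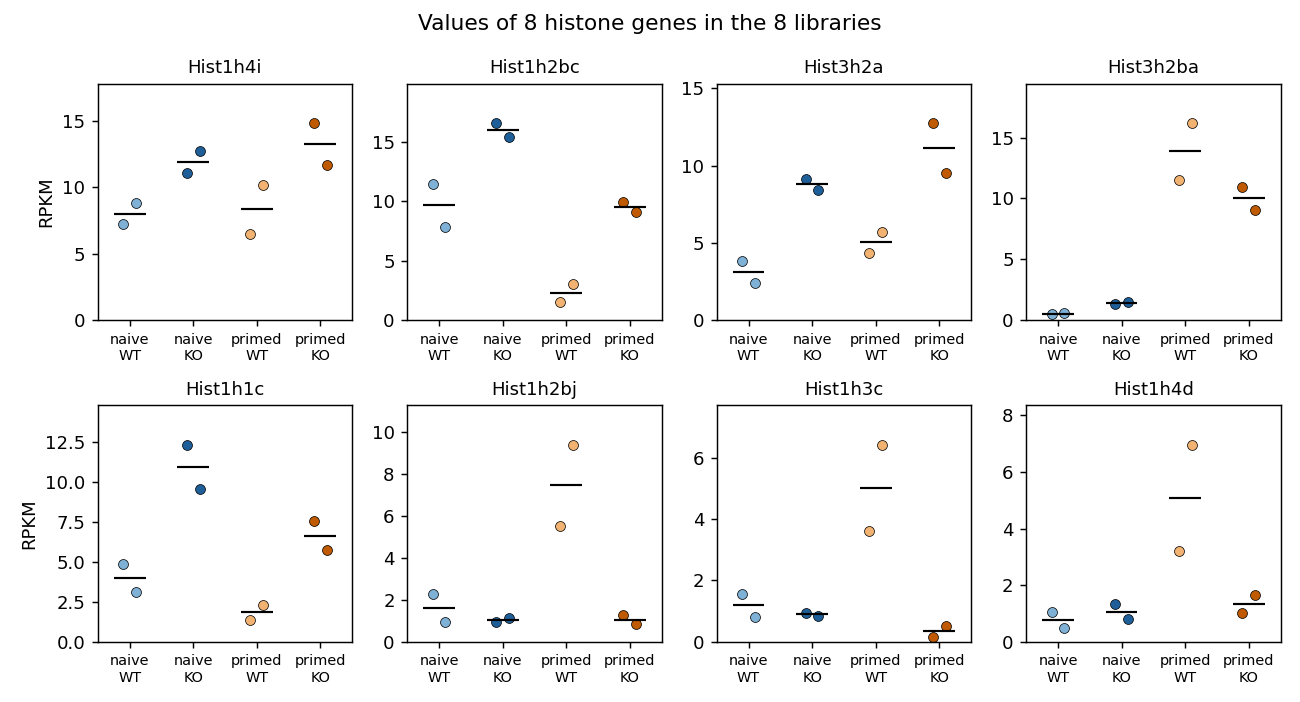
RPKM of 8 histone genes in each of the 8 libraries, with a point per library and a bar at the mean of 2 (WT, wild type; KO, labelled knockout); axes start at 0 and differ between panels. Hist1h4i, Hist1h2bc, Hist3h2a and Hist1h1c have both knockout points above both wild-type points in each state. Hist1h2bj, Hist1h3c and Hist1h4d have both primed knockout points below both primed wild-type points.

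In the primed state the whole transcriptome as deposited was shifted, and this shift has to be read beside every value. The median difference of all 13428 tested genes was -0.53, 59.3% of them were called lower and 4.16% higher. In all, 63.4% were called in either direction. Of the 19 histone genes 9 were called lower, and 4 higher. The count of lower genes is thus no larger a share than that of all genes, and the median of the 19, -0.53, was that of all genes. The 4 higher genes went against the shift. The deposited values carry a scaling whose method the sources used here do not give, and a change of the whole transcriptome cannot be told apart from it. In bulk RNA, fewer cells of a type and less RNA per cell cannot be told apart either. Sums over markers of some other cell types also differed between the primed groups. Sums over 3 mesoderm markers were 34.6 to 38.3 RPKM in knockout and 3.88 to 5.45 in wild-type libraries, with 2 of the 3 under 1 RPKM on average in the knockout group. Sums over 3 neural markers were 133 to 140 against 85.2 to 99.4 RPKM, and over 4 trophoblast markers 43.9 to 47.7 against 22.5 to 27.5. Those over 5 fibroblast markers were 14.6 to 15.4 against 33.1 to 44.9 RPKM. Over 4 endoderm markers they overlapped, at 1.66 to 2.04 against 1.86 to 2.73 RPKM. In both primed groups 2 trophoblast, 3 endoderm and 1 fibroblast markers were under 1 RPKM on average, as was 1 neural marker in knockout. The sums thus rest on few genes, and the part of such cells in the histone values was not tested. Differences relative to the median of all genes, and after loess normalization, are therefore given as well.

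Hist1h2bc had the largest rise. It measured 9.95 and 9.13 RPKM in the primed knockout libraries and 1.55 and 3.01 in the wild-type libraries, with each knockout value more than 3-fold above each wild-type value. The difference was 1.72 ± 0.24 (limma adjusted p = 5.7e-12), or 2.25 relative to all genes and 2.51 after loess normalization, and it was called in all 17 alternatives. Hist1h1c measured 7.56 and 5.72 RPKM against 1.37 and 2.33. These groups are also well apart, with a difference of 1.43 ± 0.27 (limma adjusted p = 6.1e-07), 1.97 relative to all genes and 2.22 after loess normalization, called in all 17 alternatives.

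Hist3h2a measured 12.8 and 9.54 RPKM in the primed knockout libraries against 4.33 and 5.71, again without overlap. Its difference of 1.01 ± 0.26 (limma adjusted p = 2.3e-04) was 1.54 relative to all genes and was lost without primed knockout replicate 1 (limma adjusted p = 0.0714). Hist1h4i measured 14.9 and 11.7 RPKM against 6.49 and 10.2, where the nearest libraries of the groups are close. Its difference of 0.63 ± 0.22 (limma adjusted p = 0.0068), 1.16 relative to all genes, was lost without primed knockout replicate 1, where it was 0.34 (limma adjusted p = 0.22), and without primed wild-type replicate 1. In the naive state all 4 also had both knockout libraries above both wild-type libraries, as had 3 other tested histone genes and 31.2% of all tested genes, and Hist1h4i did not pass the test there.

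Of the 9 genes called lower in the primed state, 5 entered the test only because both primed wild-type libraries reached 1 RPKM. These were Hist1h1e, Hist1h2bk, Hist1h2bm, Hist1h3e and Hist1h4b, which had to be high there to be tested, so their falls of 0.99, 1.15, 0.93, 0.87 and 0.99 on the log2 scale are no support for a fall of the family. All 5 were under 1 RPKM in both primed knockout libraries and at 1.24 to 3.18 RPKM in the primed wild-type libraries. The calls of Hist1h1e and Hist1h3e were lost without primed knockout replicate 2 (limma adjusted p = 0.06 and 0.16). Without either primed wild-type library these 5 genes were no longer tested. With median centring the calls of Hist1h1e, Hist1h2bm, Hist1h3e and Hist1h4b were lost as well.

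Hist1h3c, the highest H3 gene, measured 0.158 and 0.526 RPKM in the primed knockout libraries against 3.62 and 6.42 in the wild-type libraries. The groups are far apart. The 4 naive values lie between 0.820 and 1.55, but naive and primed libraries were scaled separately, so the states are not compared. The difference was -2.14 ± 0.27 (limma adjusted p = 2.2e-14), -1.61 relative to all genes and -1.52 after loess normalization. Hist1h2bj, an H2B gene, measured 1.27 and 0.825 RPKM against 5.53 and 9.38, a difference of -2.02 ± 0.28 (limma adjusted p = 5.4e-12), -1.48 relative to all genes and -1.26 after loess normalization. Both calls held in every alternative that tested the gene. Hist1h3c, however, passed the filter through the primed wild-type libraries, where it is high. Elsewhere it reached 1 RPKM only in naive wild-type replicate 1, so its fall is no support for a fall of the family.

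Hist1h4d, the H4 gene with the second highest level, measured 1.03 and 1.66 RPKM against 3.22 and 6.96, with the 2 wild-type libraries far from each other. Its difference of -1.32 ± 0.27 (limma adjusted p = 5.5e-06) was -0.79 relative to all genes and -0.60 after loess normalization, and it ranged from -0.86 without primed wild-type replicate 2 to -1.78 without primed wild-type replicate 1. Hist2h2bb, the ninth gene called lower, measured 0.686 and 1.05 RPKM against 2.05 and 2.15. Its difference of -0.74 ± 0.25 (limma adjusted p = 0.0074) was -0.20 relative to all genes, and the call was lost after median centring, quantile or loess normalization and without primed knockout replicate 1.

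The other 6 tested genes did not pass in the primed state. Hist3h2ba measured 11.0 and 9.04 RPKM in the primed knockout libraries against 11.5 and 16.2, a difference of -0.42 ± 0.28 that was 0.11 relative to all genes. Hist4h4, the single gene of its locus, measured 1.30 and 0.876 RPKM against 0.505 and 1.06, overlapping groups with a difference of 0.24 ± 0.25, although loess normalization called it higher at 0.72 (limma adjusted p = 5.0e-04). Differences of the remaining 4, Hist1h1a, Hist1h3g, Hist1h4k and Hist2h2be, lay between -0.53 and -0.041, and the last of them was higher at 0.45 after loess normalization (limma adjusted p = 6.2e-04).

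**Figure D4:**
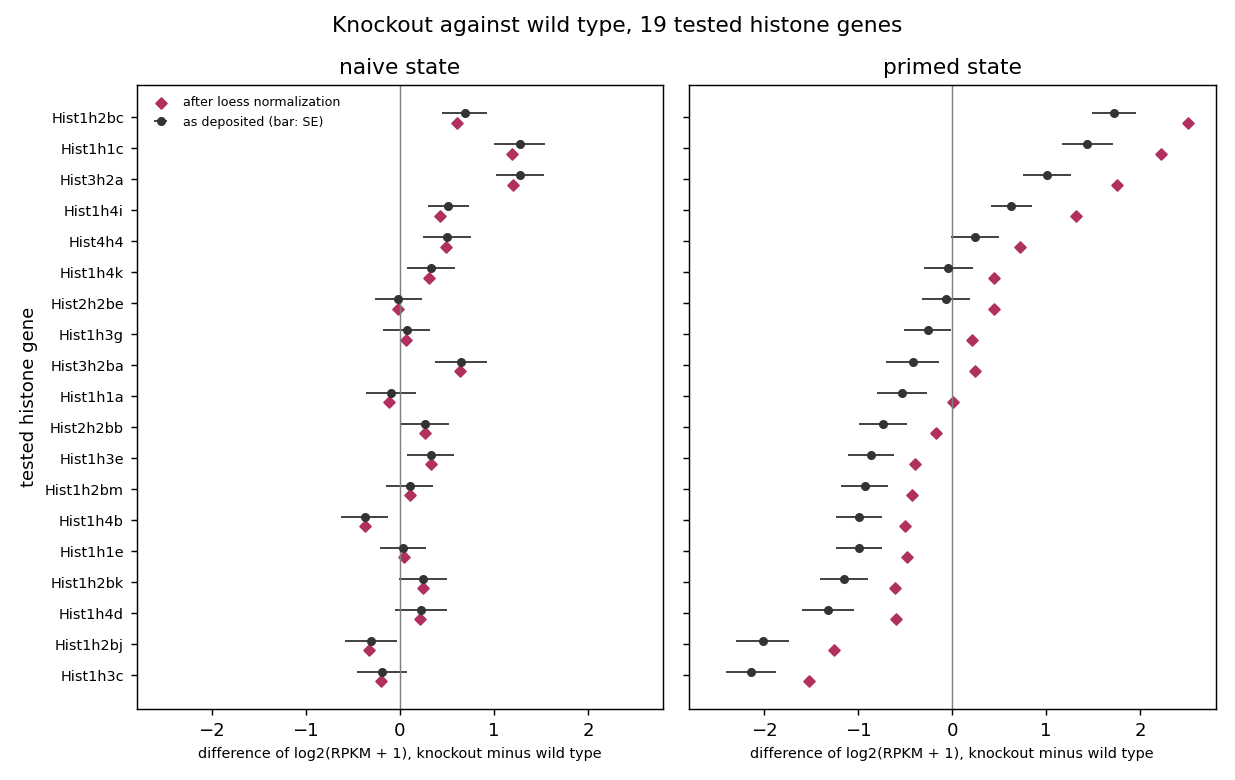
Difference of log2(RPKM + 1), knockout minus wild type, for the 19 tested histone genes in the naive (left) and primed (right) state, as deposited with SE bars and after loess normalization (diamonds), sorted by the primed value. Hist1h2bc, Hist1h1c, Hist3h2a and Hist1h4i lie right of 0 in both panels, Hist1h3c and Hist1h2bj lie at -2.14 and -2.02 in the primed state, and loess normalization moves the primed values to the right.

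Ratios of genes within a library would not depend on a plain multiplication of that library. The authors' scaling was not one, since the ratio of Hist1h2ao to Hist1h2bq, both tied with other genes, ran from 3.34 to 4.70 between naive wild-type libraries, and its part in the ratios below was not tested. The genes of each ratio were picked after their values were seen, and the ratios are given with no test. In the H2B class Hist1h2bc stood at 7.83 and 11.1 times the level of Hist1h2bj in the primed knockout libraries and at 0.280 and 0.321 times in the primed wild-type libraries. In naive cells the same ratio was 17.4 and 13.6 in the libraries labelled knockout and 5.04 and 8.37 in wild type. Of the 8 libraries, the primed wild-type pair thus had Hist1h2bj above Hist1h2bc, and the other 6 the reverse. For H4 the ratio of Hist1h4i to Hist1h4d was 14.5 and 7.06 in primed knockout and 2.02 and 1.47 in primed wild-type libraries.

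Sums over the family are given on the same scaled values. The 5 highest genes held 72.3% and 69.8% of the summed histone RPKM in the primed knockout libraries and 37.0% and 33.2% in the primed wild-type libraries. In the naive state the shares were 63.8% and 68.5% against 48.8% and 61.6%. The other 64 genes summed to 21.5 and 19.6 RPKM in primed knockout and to 43.0 and 75.4 in primed wild type, and their sums of 28.6 and 21.9 against 29.3 and 14.2 in the naive state overlap. The number of histone genes at or above 1 RPKM was 9 and 9 in the primed knockout libraries, 15 and 31 in primed wild type, 12 and 8 in naive knockout and 8 and 4 in naive wild type. Primed wild-type replicate 2, with 31 such genes, also had the highest sum over all rows of the 8 libraries, 507598 RPKM against 341480 to 442061 in the other 7 libraries.

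Over all 69 genes, tested or not, both primed knockout values lay under both wild-type values in 46 and above them in 6. The groups of 17 overlapped. Among the 46 are all 12 genes that had exactly the value of other genes in every primed library, at most 0.216 RPKM. Such shared values are not specific to a gene, so these 12 are no support for a fall of the family. Over all 24505 rows the shares were 78.3% below and 5.1% above, and over the tested genes they were 76.4% and 6.76%. In the naive state 17 genes had both knockout values above, 3 below, and 49 overlapped, beside 19.2% above and 13.5% below over all rows and 31.2% and 21.0% over the tested genes. The 50 genes not tested peaked at 2.19 RPKM, that of Hist1h4f in primed wild-type replicate 2.

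Whether the effect differed between the states was tested as the primed minus the naive difference, which compares 2 contrasts with separate controls. It was higher for 1 of the 19 genes, beside 2.16% of all tested genes, and lower for 9, beside 47.4% (49.6% in either direction), while the median of all tested genes was -0.59. Hist1h2bc was the higher one, at 1.03 ± 0.34 (limma adjusted p = 0.0073), 1.62 relative to all genes and 1.90 after loess normalization, and this call was lost without either knockout library of either state (adjusted p up to 0.089). The largest falls were those of Hist1h3c with -1.95 ± 0.38 (limma adjusted p = 3.4e-06), Hist1h2bj with -1.71 ± 0.39, Hist1h4d with -1.55 ± 0.39, Hist1h2bk with -1.40 ± 0.36 and Hist1h3e with -1.19 ± 0.35. For the first 3 the call held in every alternative that tested them. Hist1h3c, however, passed the filter through the primed wild-type libraries, where it is high. Elsewhere it reached 1 RPKM only in naive wild-type replicate 1, so its value here is no support. Hist1h2bk and Hist1h3e entered the test only through the primed wild-type libraries, where they had to be high, so their values here are no support, and without either of these libraries they were not tested. Hist3h2a and Hist1h1c, which rose in both states, differed between them by -0.27 ± 0.36 and 0.16 ± 0.38 as deposited and by 0.55 and 1.03 after loess normalization, which called both (limma adjusted p = 0.0054 and 4.6e-04).

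The promoters show what else the classes share. RefSeq promoters of build GRCm38.p6, from 250 bases before to 50 after the start, matched 61 of the 69 genes, and Hist1h2bc was not among them. CCAAT, searched on both strands, was found in all matched H1, H2A, H2B and H3 promoters, 6, 17, 16 and 10, but in 3 of 12 for H4, against 41.1% of 27025 genes. The octamer ATTTGCAT, which POU factors bind, was found in 7 of 17 H2A and 7 of 16 H2B promoters and in 0 of the other classes, against 1.97%. Some H2A and H2B promoters overlap on opposite strands, such as those of Hist1h2ae and Hist1h2bg. An octamer or CCAAT in the shared stretch counts in both classes, so these counts are not of separate promoters. AAACACA, known as the H1 box, was found in 5 of 6 H1 promoters, against 8.22%, and TATAAA in 35 of the 61, against 15.7%. The promoters of 3 genes that were called in opposite directions in the primed state are shown with these letters in capitals on either strand, Hist1h1c and Hist3h2a higher and Hist1h3c lower. They lie at chr13:23738557-23738856 (plus strand), chr11:58954435-58954734 (plus strand) and chr13:23745472-23745771 (minus strand).
Hist1h1c: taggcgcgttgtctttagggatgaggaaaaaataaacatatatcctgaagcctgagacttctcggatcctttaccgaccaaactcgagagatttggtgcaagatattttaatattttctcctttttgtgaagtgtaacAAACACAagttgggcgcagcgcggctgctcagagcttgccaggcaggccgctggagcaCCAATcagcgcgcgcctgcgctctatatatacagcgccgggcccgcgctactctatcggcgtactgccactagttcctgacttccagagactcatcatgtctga
Hist3h2a: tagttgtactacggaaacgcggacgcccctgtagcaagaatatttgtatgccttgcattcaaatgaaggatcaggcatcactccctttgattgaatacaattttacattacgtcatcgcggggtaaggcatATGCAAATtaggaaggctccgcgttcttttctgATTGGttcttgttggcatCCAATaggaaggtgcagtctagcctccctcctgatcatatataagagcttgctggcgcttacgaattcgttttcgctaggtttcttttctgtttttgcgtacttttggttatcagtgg
Hist1h3c: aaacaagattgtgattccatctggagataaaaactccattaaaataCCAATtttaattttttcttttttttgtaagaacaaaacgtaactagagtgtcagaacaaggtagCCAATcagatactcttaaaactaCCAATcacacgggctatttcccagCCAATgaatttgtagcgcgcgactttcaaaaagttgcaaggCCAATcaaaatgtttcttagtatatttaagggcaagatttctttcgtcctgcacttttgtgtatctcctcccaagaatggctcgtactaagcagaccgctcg
All 3 hold CCAAT, like every matched promoter of their classes, while the promoter of Hist1h4i, called higher as well, holds none. The octamer stands in that of Hist3h2a, as in 7 of 17 H2A promoters. The H1 box stands in that of Hist1h1c, as in 5 of 6 H1 promoters.

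Genes that make and process histone mRNA were followed as a list of 28, all of which were tested. In the naive state 3 rose and 1 fell, beside 6.08% and 5.85% of all tested genes, and the median difference was 0.065. Cpsf1, a cleavage factor shared with poly(A) site processing, stood at 57.5 and 54.7 RPKM against 43.1 and 41.7, and Srrt, the ARS2 protein of the cap-binding complex, at 127 and 126 against 94.6 and 105. Ccne1, the cyclin E whose kinase activates NPAT, fell to 60.6 and 61.8 RPKM against 83.5 and 88.4. In the primed state 2 rose and 17 fell, and the median was -0.40, against -0.53 for all genes, of which 4.16% rose and 59.3% fell. Loess normalization called 15 higher and 9 lower, beside 37.0% and 36.5% of all genes. Srrt at 97.7 and 92.5 against 62.8 and 71.0 RPKM and Ncbp2, a cap-binding subunit, at 41.0 and 37.9 against 24.0 and 27.5 rose. Lsm11 and Lsm10, both of the U7 snRNP that cuts histone precursors, fell to 1.29 and 1.36 RPKM against 5.39 and 7.83 and to 11.6 and 10.5 against 20.5 and 25.7, and both stayed lower after loess normalization, at -0.93 and -0.39.

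Slbp and Npat were called lower in the primed state as deposited, but by less than the median of all genes. Slbp stood at 59.6 and 60.5 RPKM against 58.7 and 64.0 in the naive state, a difference of -0.03 (limma adjusted p = 0.93). In the primed state Slbp stood at 48.1 and 44.6 against 52.8 and 58.7 RPKM, with a difference of -0.26 (limma adjusted p = 0.027) that turned to 0.097 after loess normalization. Npat stood at 9.31 and 8.58 RPKM against 11.3 and 15.0 in the primed state, a difference of -0.50 (limma adjusted p = 0.02) that turned to 0.19.

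Of 38 genes of DNA replication in S phase, the phase in which histone genes are on, 8 were lower and 0 higher in the naive state, and 27 lower and 0 higher in the primed state. Among all tested genes 5.85% were lower in the naive and 59.3% in the primed state. Medians of the 38 were -0.17 and -0.44. Loess normalization called 1 higher and 26 lower in the naive state, beside 29.1% and 28.4% of all genes, and 13 higher and 15 lower in the primed state, beside 37.0% and 36.5%. Mcm2, a subunit of the replicative helicase, stood at 93.9 and 91.5 RPKM against 176 and 197 in naive cells. Gins2, another helicase factor, stood at 27.2 and 25.4 RPKM against 75.0 and 86.6 in primed cells, and Pola1, the catalytic subunit of DNA polymerase alpha, at 8.87 and 8.89 against 26.3 and 31.7. The part of S phase cells in the histone values was not tested.

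Histone chaperones and enzymes that modify new histones, 24 tested, had 1 member higher and 3 lower in the naive state and 1 higher and 17 lower in the primed state, with medians of -0.029 and -0.43. The shares of all genes were 6.08% higher and 5.85% lower in the naive and 4.16% and 59.3% in the primed state. Nasp, a chaperone of H3 and H4 and of linker histones, fell in naive cells to 129 and 136 RPKM against 213 and 245, and Anp32e, a chaperone of H2A.Z, to 53.6 and 56.5 against 66.1 and 70.0. Atrx, which with DAXX deposits H3.3, rose to 59.6 and 63.7 RPKM against 45.6 and 46.6. In primed cells Rbbp7, a histone-binding subunit of several chromatin complexes, rose to 167 and 163 RPKM against 128 and 136. Ubn2, of the HIRA chaperone complex, and Cdan1, a partner of the chaperone ASF1, fell to 3.98 and 3.85 against 10.3 and 13.8 RPKM and to 6.68 and 6.84 against 15.6 and 20.3.

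Among 11 replication-independent variants tested, 3 were higher and 2 lower in the naive state and 3 higher and 7 lower in the primed state, beside 6.08%, 5.85%, 4.16% and 59.3% of all genes in the same order. H2afj, an H2A variant, stood at 41.4 and 36.8 RPKM against 21.3 and 26.2 in naive and at 53.4 and 39.2 against 17.0 and 24.0 in primed cells, higher in both (limma adjusted p = 5.4e-06 and 1.8e-16). H3f3a and H3f3b, which encode the same H3.3 protein, went opposite ways in both states. H3f3b stood at 346 and 349 RPKM against 238 and 268 in naive cells and at 311 and 292 against 239 and 263 in primed cells, and H3f3a at 48.5 and 46.3 against 63.8 and 66.2 and at 85.8 and 79.6 against 124 and 148. H1f0, the linker histone of resting cells, rose in naive cells, at 40.2 and 41.7 against 28.9 and 26.0 RPKM, and fell in primed cells, at 36.2 and 32.7 against 73.4 and 79.9. H1fx, another linker histone, fell in primed cells to 13.1 and 9.69 RPKM against 37.3 and 50.9. H2afy2, a macroH2A gene, was lower in both states, at 15.4 and 14.5 against 32.0 and 28.4 RPKM in naive cells and at 13.3 and 13.3 against 47.3 and 55.5 in primed cells. H2afx stood at 162 and 147 RPKM against 107 and 174 in naive cells and at 159 and 114 against 104 and 127 in primed cells, where it was called higher (0.23, limma adjusted p = 0.016) but not without primed knockout replicate 1.

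Of 101 tested noncoding RNAs on a list meant for RNAs without a poly(A) tail, 12 were higher and 11 lower in the naive state and 9 higher and 60 lower in the primed state, again beside 6.08%, 5.85%, 4.16% and 59.3%. Medians were 0.014 and -0.48, near those of all genes. Neat1, a nuclear RNA, stood at 6.90 and 5.93 RPKM against 2.14 and 1.04 in naive cells, and the small nucleolar RNA Snora43 at 9.35 and 7.62 against 3.71 and 3.02. Rpph1 was lower there at 4.64 and 2.90 against 10.7 and 5.76 RPKM, and Snord83b at 79.1 and 64.8 against 120 and 121. In primed cells Snora7a rose to 58.4 and 53.4 RPKM against 28.6 and 31.5 and Snord15a to 3.88 and 2.49 against 1.76 and 1.49, while Scarna10 fell to 1.16 and 1.08 against 6.18 and 10.8 and Snora34 to 0.908 and 1.07 against 4.09 and 6.11. Many of these RNAs lie in introns of host genes, so their values can hold host reads. A value per gene also does not tell whether the RNA counted, such as that of Neat1, had a tail.

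The state markers followed the labels, with summed naive-state markers at 845 to 963 RPKM in naive and 11.9 to 28.4 in primed libraries and primed-state markers at 19.2 to 25.2 and 210 to 239. Ino80 stood at 15.9 and 15.1 RPKM in the naive libraries labelled knockout against 17.0 and 14.5, a difference of -0.02 (limma adjusted p = 0.975), and at 9.12 and 8.74 against 15.9 and 20.3 in primed libraries, -0.93 (limma adjusted p = 2.0e-06) or -0.28 after loess normalization. A value over the whole gene counts exons outside a deleted part, so it is a weak check of the labels. In naive libraries the 5 fibroblast markers were under 1 RPKM on average in both groups, with sums of 0.553 to 2.03 RPKM, and the sums over endoderm, trophoblast, neural and mesoderm markers were at most 4.97, 16.5, 10.9 and 4.40 RPKM.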

How the data were processed

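Per the submitters' processing notes, reads were handled with cutadapt 1.9, STAR 2.5.2b, featureCounts 1.5.1 and the affy package on build mm9. Strand, multi-mapped reads and parameters are not given in the sources used here. The authors deposited 1 RPKM value per gene and library. These RPKM values were scaled further by an unstated method, separately for naive and primed libraries, as read from ties between genes, so no test compares the states directly. The deposited tables hold 0 spike-in rows, although spike-in RNA was added per the labels' protocols, and the depth of the libraries is unknown.

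Values were taken as log2(RPKM + 1), which understates changes of low genes. All genes that reached 1 RPKM in 2 or more of the 8 libraries were fitted with limma 3.58.1 in R 4.3.3 as 4 group means with an intensity trend. The prior degrees of freedom were infinite, so each gene took its variance from the trend, which makes adjusted p-values of large changes very small. The procedure was tested on simulated data. The 17 alternatives are given with their effects in the closing section. Python 3.11.15 and matplotlib 3.10.9 made the figures.

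Members, lists and tests were chosen with earlier results of these data known. Named were the 3 highest members of each class, up to 5 called members per comparison and direction with a higher group mean of at least 5 RPKM and no overlap (for the difference of effects, the largest), all members of the Hist3 and Hist4 loci, 3 germ-cell genes, up to 2 called genes per list and direction, and Slbp, Npat, H2afx, H3f3a, H3f3b and Ino80. List genes were named for the naive and primed comparisons only. Further members were named after their values were seen, as were Rmrp, Terc, Malat1, H2afz, H1foo and H1fnt. Transcript ends and unique windows came from GENCODE M21 on GRCm38, not the build of the files, and no coordinates were carried between builds. A planned comparison of protein sequences was not made. The window for the poly(A) signal was set after transcript ends had been looked at, and Hist4h4 has a signal just outside it.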

Additional observations from a re-analysis of the deposited data

Results flagged for a closer look

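For 10 histone genes the knockout effect differed between the states in the test of the difference itself, primed minus naive, by limma at an adjusted p under 0.05, beside 49.6% of all tested genes. The value was 1.03 for Hist1h2bc, which rose in both states. It was -1.95 for Hist1h3c, -1.71 for Hist1h2bj, -1.55 for Hist1h4d, -1.40 for Hist1h2bk, -1.19 for Hist1h3e, -1.03 for Hist1h2bm, -1.02 for Hist1h1e and -1.01 for Hist2h2bb, all called lower in the primed and not called in the naive state. Of these, Hist1h2bk, Hist1h3e, Hist1h2bm and Hist1h1e were tested only because they were high in the primed wild-type libraries, so their values are no support for a difference. It was -1.07 for Hist3h2ba, which was called in neither state. The median over all tested genes was -0.59, and after loess normalization Hist1h2bm, Hist2h2bb and Hist3h2ba no longer passed. With median centring or quantile normalization Hist1h1e and Hist1h3e did not pass either. Leaving out 1 library ended the call in 5 cases for Hist3h2ba, in 4 for Hist1h2bc, in 3 each for Hist1h1e, Hist1h2bm and Hist2h2bb and in 2 for Hist1h3e. The calls of Hist1h3c, Hist1h2bj and Hist1h4d held in every alternative that tested them. Hist1h3c, however, also passed the filter through the primed wild-type libraries, where it is high. Elsewhere it reached 1 RPKM only in naive wild-type replicate 1, so its value is no support for a difference either. No group of 4 or more libraries exists, so single libraries were not tested as outliers.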

How the results depend on the processing

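Alternatives were a pseudocount of 0.1, no filter, a filter of 5 RPKM, median centring, quantile and loess normalization, no variance trend, the replicate number as a block, each state alone, and leaving out each library, where the single library left in a group is taken to vary as the others do. With 2 libraries a group, a further scaling by the authors and unknown depth, genes near 1 RPKM are the least certain.

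Histone genes called higher in the naive state, 3 as reported, were 6 with median centring and 5 after quantile and after loess normalization, and those called lower, 0 as reported, were 1 in each, beside 16.1%, 31.9% and 29.1% of all genes higher and 17.0%, 27.5% and 28.4% lower. All genes called there, 1602 as reported, were 4456, 7967 and 7719 in the same order, 908 without a variance trend, 2534 with the state alone and 942 with the replicate block. In the primed state the 4 called higher became 8 with median centring and 7 after quantile normalization, beside 41.6% and 39.4% of all genes. The 9 called lower, beside 59.3% of all genes, became 27 of 69 without a filter, beside 36.6%. They became 1 of 6 with a filter of 5 RPKM, which tested fewer genes, beside 64.7%, and 4 with median centring, beside 23.6%. For the difference of effects the 1 called higher became 5 with each of the 3 scalings, beside 29.2% to 33.9% of all genes. The 9 called lower there became 21 of 69 without a filter, beside 23.4%, and 2 of 6 with a filter of 5 RPKM, beside 54.8%. With median centring and after quantile normalization they became 4, beside 17.1% and 30.5%. Median centring moved the primed median of all genes from -0.53 to 0.16.

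Leaving out single libraries gave 1 to 4 histone genes higher and 0 to 1 lower in the naive state, 2 to 4 and 4 to 10 in the primed state and 0 to 1 and 4 to 11 for the difference. All genes called ranged over 559 to 2950, 5523 to 9547 and 3446 to 8858. The lowest naive count came without naive knockout replicate 1 and the highest without primed wild-type replicate 2. The lowest primed and difference counts came without primed knockout replicate 2.

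Same-numbered libraries deviated from their group means with a correlation of 0.31 in the naive and -0.036 in the primed state, so the numbers were not taken to pair them. With the replicate block 2 histone genes were higher and 0 lower in the naive state, beside 3.27% and 3.75% of all genes, and the Hist1h2bc call was lost. In the primed state 4 were higher and 9 lower, beside 3.36% and 53.8%. For the difference 1 was higher and 9 were lower, beside 1.72% and 36.8%.

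Some signs turned. For the primed difference, values under median centring were 0.067 for Anp32e, 0.13 for Atrx, 0.47 for Cpsf1, 0.44 for Hist1h3g, 0.65 for Hist1h4k, 0.081 for Nasp, 0.56 for Neat1, 0.20 for Npat and 0.43 for Slbp. Under quantile normalization they were 0.16 for Cpsf1, 0.53 for Hist1h4k, 0.40 for Neat1, 0.20 for Npat, 0.47 for Rpph1 and 0.15 for Slbp. Under loess normalization they were 0.10 for Cpsf1, 0.30 for Neat1, 0.19 for Npat, 0.48 for Rpph1 and 0.097 for Slbp. H2afx ranged from -0.0082 without primed knockout replicate 1 to 0.46 without replicate 2. For the difference of effects, median centring gave 0.42 for Anp32e, 0.13 for Cpsf1, 0.064 for Gins2, 0.48 for Hist3h2a and 0.74 for Mcm2. Quantile normalization gave 0.17 for Ccne1, 0.53 for Hist3h2a, 0.33 for Mcm2, 0.17 for Npat and 0.19 for Slbp, and loess normalization 0.14, 0.55, 0.24, 0.16 and 0.16 for the same genes. The cause of each turn was not tested.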
